A study of Mus musculus with 12 samples.

Results

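Necroptosis is a form of programmed cell death that ends with rupture of the plasma membrane. In its core pathway the kinases RIPK1 and RIPK3, or the nucleic acid sensor ZBP1 with RIPK3, lead to phosphorylation of the pseudokinase MLKL, which then acts at membranes. The protease caspase-8, held in a complex with the adaptor FADD and the caspase-8 homologue cFLIP (encoded by Cflar), cleaves the kinases and restrains the pathway, and TRADD is the adaptor that links the TNF receptor to RIPK1. Accessible chromatin at the 8 genes for these proteins, namely Mlkl, Ripk3, Ripk1, Zbp1, Casp8, Fadd, Cflar and Tradd, was examined in mouse hematopoietic stem cells (HSCs), the blood-forming cells of the bone marrow. A region was assigned to a gene when it lay in the gene body or within 10 kb of it. In all, 25 of the 71006 regions of the study met this rule.

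The data were ATAC-seq libraries, in which a transposase inserts adapters into open DNA, from C57BL/6 mice. The 12 libraries formed 4 groups of 3, which were Young WT (wild type, 3 months old), Young Mlkl-/- (3 months), Aged WT (18 months) and Aged Mlkl-/- (18 months). No treatment is given in the labels. The HSCs of a library came from a pool of mice, larger for young than for aged animals, so that differences between single mice were not measured. Which part of the gene is missing in Mlkl-/- mice is not given in the sources used here. The comparison between ages asked what changes in HSC chromatin with age, and the comparison between genotypes asked whether loss of MLKL alters it.

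The deposited data are lists of peak summits, the points of highest accessibility within peaks, each with a score that is the −log10 of its q-value. Each list was made from 1 library, and the files hold no reads, so the depth is unknown. Summits with a score of at least 3 were used, and a region is a merged window of 250 bp on each side of such summits. A region is called in a list when it holds a summit of that list. Its position is its rank there, with 1 for the highest score. Positions were also turned into normal scores, which are higher for regions nearer to the top of the list, and changes are differences in mean normal score. To give every list the same weight, only the 28428 highest regions of each list were ranked for this purpose, and all others shared a normal score of -0.52. A change is therefore a change in rank relative to all other regions and not in accessibility itself.

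The lists held between 35714 and 61495 summits. The 6 aged lists were longer than the young ones by 10560 summits on average (exact two-sided permutation test, p = 0.025, which rose to between 0.055 and 0.075 without Young Mlkl-/- replicate 1 or 3 or Aged Mlkl-/- replicate 1 or 3), and the Mlkl-/- lists were longer than the WT lists by 1886 summits (p = 0.63). A region is more easily called in a longer list. The shortest list, Young Mlkl-/- replicate 3, called 12 of the 25 regions, and the other 11 lists called 18 to 23. Summits within 1 kb of the Y chromosome genes Ddx3y, Eif2s3y, Uty and Kdm5d, called Y summits below, were present in 3 of the 6 young and in 0 of the 6 aged lists. Summits elsewhere on the Y chromosome were not counted, and the labels give no sex for the pools. Of 10 HSC genes, 6 had a start region that was called in all 12 lists and 1 (Slamf1) had none, whereas of 16 genes of other cells 1 (Klf1) was called in all 12 lists and 11 in none. Cd14 and Lepr, which are among those 16, were called in more aged than young lists. In a bulk sample, fewer cells of a type and less accessibility per cell cannot be told apart.

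Of the 25 regions, 11 lay within 1 kb of a start of the gene itself, 4 within 1 kb of the start of a neighbouring gene, and 10 away from starts. They were not evenly spread, since Tradd, a short gene among close neighbours, had 6, Ripk1 had 5, Ripk3, Casp8 and Cflar had 3 each, Mlkl and Zbp1 had 2 and Fadd had 1. In all 12 lists, 11 of the 25 regions were called, beside 28.6% of all regions of the catalogue, and 5 were called in fewer than 6 lists. Of the 11 regions at a member's own start, 6 were called in 12 of 12 lists, while this was so of 63.3% of all regions at starts of protein-coding genes. All 8 genes had at least 1 region called at their start.

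**Figure D1:**
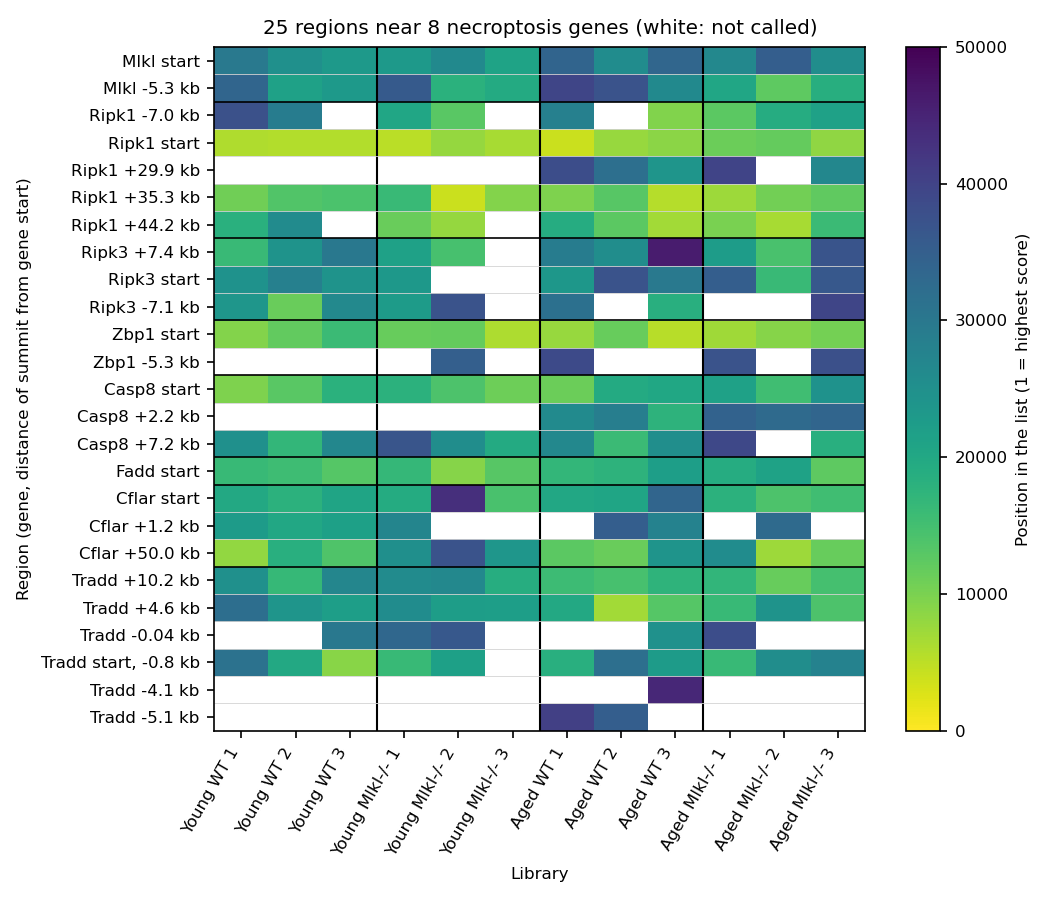
Position of each of the 25 regions (rows, named by gene and by the distance of the highest summit from the gene start, positive into the gene) in each of the 12 lists (columns). Yellow marks positions near the top of a list, dark blue positions far down it, and white a region that was not called. The regions of Casp8 at +2.2 kb and of Ripk1 at +29.9 kb are white in all 6 young lists. So are those of Tradd at -4.1 kb and -5.1 kb, called in only 1 and 2 aged lists.

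The following stretches of the mouse genome (GRCm38, the build mm10) show where the results below sit. They are the promoter of Mlkl, the gene that the mutant mice lack, and the promoter of Zbp1, which held the densest set of motif matches. The others are the intronic regions of Casp8 and Ripk1, called in 6 and 5 aged lists, respectively, and in no young list. Each is written 5′ to 3′, on the gene's own strand, in lower case. Capitals mark matches on either strand to the letters of an ETS (AGGAAGT), STAT (TTCNNNGAA) or RUNX (TGTGGTT) motif or to an IRF motif, which holds a pair of GAAA cores with 2 bases between them. The Mlkl sequence is the RefSeq promoter entry, 250 bases up to the start at chr8:111338206-111338455 on the minus strand. The Zbp1 sequence ends at the gene start at chr2:173218924-173219123 on the minus strand, and the intronic sequences are centred on the highest summit, at chr1:58797477-58797677 for Casp8 and chr13:34032130-34032330 for Ripk1, both on the plus strand.
Mlkl promoter: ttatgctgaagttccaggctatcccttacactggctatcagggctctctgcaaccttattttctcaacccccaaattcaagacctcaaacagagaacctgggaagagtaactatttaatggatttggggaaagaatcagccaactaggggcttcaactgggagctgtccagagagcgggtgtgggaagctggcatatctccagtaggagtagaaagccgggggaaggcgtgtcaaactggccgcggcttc
Zbp1 promoter: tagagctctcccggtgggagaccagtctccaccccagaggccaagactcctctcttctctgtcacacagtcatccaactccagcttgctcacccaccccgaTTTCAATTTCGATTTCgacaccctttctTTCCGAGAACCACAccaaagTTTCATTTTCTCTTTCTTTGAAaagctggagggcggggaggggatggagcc
Casp8 intron: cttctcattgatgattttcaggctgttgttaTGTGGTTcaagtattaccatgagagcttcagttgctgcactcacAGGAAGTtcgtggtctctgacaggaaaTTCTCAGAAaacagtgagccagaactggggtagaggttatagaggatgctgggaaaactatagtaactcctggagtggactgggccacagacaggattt
Ripk1 intron: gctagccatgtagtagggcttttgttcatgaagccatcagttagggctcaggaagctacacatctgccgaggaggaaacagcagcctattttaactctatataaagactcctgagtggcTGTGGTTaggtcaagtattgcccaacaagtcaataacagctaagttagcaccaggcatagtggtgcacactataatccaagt

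The Mlkl promoter and the surrounding 301 bp of its start region held no match to any of the 8 motifs searched, which also included AGATAA for the factors of the GATA family, motifs of NF-kB and CTCF (by name) and lastly AP-1 (TGANTCA). The Zbp1 stretch held 4 matches to the IRF motif, in 2 overlapping pairs, which was present in 2.56% of the 301-bp windows at tested protein-coding start regions, together with 2 STAT matches, a motif held by 5.41% of such windows, and 1 RUNX match, held by 4.13%. One of the STAT matches overlaps the IRF letters and the other overlaps the RUNX match. Cflar was the only other of the 25 regions to hold an IRF match, at its start. The Casp8 intronic region held an ETS, a STAT and a RUNX match, which were present in 24.2%, 9.18% and 16.9% of tested regions away from starts, and the Ripk1 intronic region held a RUNX match. These are matches of letters and not shown binding sites.

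The start regions differed widely in rank. In order of mean normal score they were Ripk1, Zbp1, Fadd, Casp8, Cflar, Tradd, Mlkl and Ripk3, and 66.0%, 56.2%, 37.3%, 37.0%, 25.6%, 21.3%, 14.2% and 10.4%, respectively, of 12597 tested start regions of protein-coding genes lay lower. Ripk1 and Zbp1 were therefore above the middle of all start regions, and the executioner Mlkl and its activating kinase Ripk3 lay in the lower part. Neighbours in this order were mostly not separated beyond the spread over lists. Ripk1 ranked above Zbp1 in 8 of 12 lists, Fadd above Casp8 in 6, Cflar above Tradd in 6 and Mlkl above Ripk3 in 8. Zbp1 ranked above Fadd in 10 of 12 lists, with a mean difference of 0.34 ± 0.32 (SD, n = 12) in normal score.

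**Figure D2:**
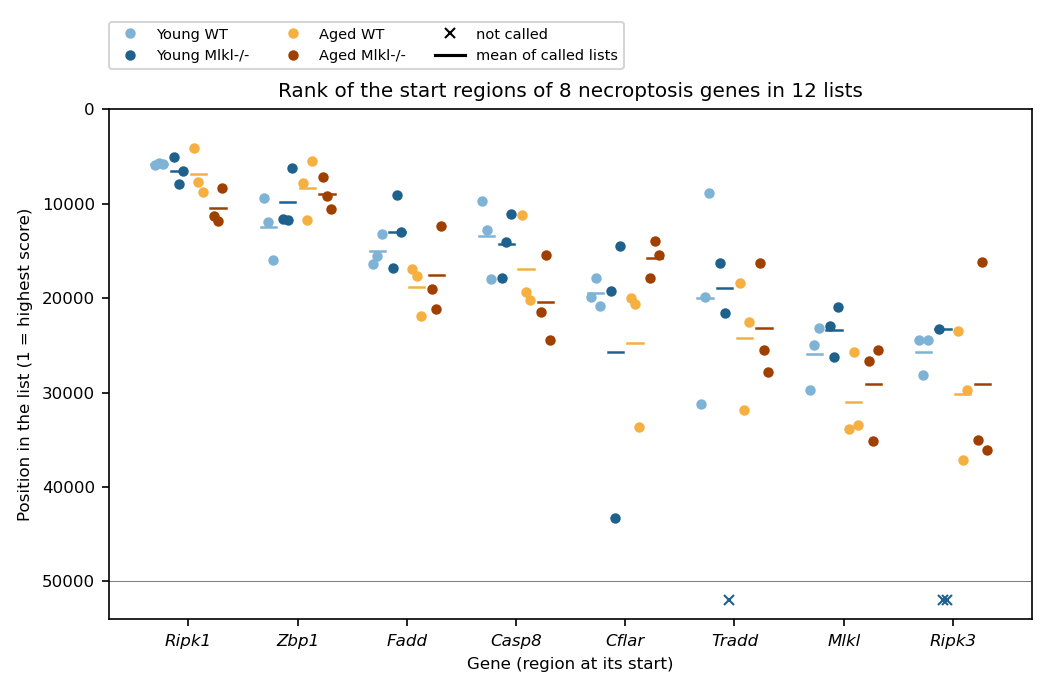
Position in its list (vertical axis, 1 at the top being the highest score) of the start region of each of the 8 genes in the 12 libraries, coloured by group, with a line at the mean of the lists that called it and a cross for a list that did not. Ripk1 sits between 4088 and 11827 in every list, while Ripk3 lies between 16180 and 37166 and is missing from 2 Young Mlkl-/- lists.

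Accessibility at Mlkl itself was first compared between the mutant and WT libraries. The region over its start and untranslated first exon (chr8:111337167-111338851) was called in all 12 lists, Mlkl-/- lists included. Its positions were 29708, 24906 and 23184 in Young WT, 22900, 26279 and 20946 in Young Mlkl-/-, 33819, 25752 and 33404 in Aged WT and 26671, 35090 and 25482 in Aged Mlkl-/-. The mutant and WT values overlapped at both ages, and the change with genotype was 0.31 ± 0.27 (limma, adjusted p = 0.88). Since the deleted part is not known, these calls are no check of the labels. Within the region, 5 lists held a further summit between 567 and 760 bp into the gene, 3 of them WT and 2 Mlkl-/-, and no region was called in the gene body beyond 2 kb of the start in any library.

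The second Mlkl region lay 5.27 kb upstream, between genes (chr8:111343157-111343787), and was also called in all 12 lists, with its 12 summits within 131 bp. Positions were 33758, 21384 and 23075 in Young WT, 35770, 18026 and 19512 in Young Mlkl-/-, 39554, 37166 and 26288 in Aged WT and 20394, 12478 and 18714 in Aged Mlkl-/-. All 3 Aged Mlkl-/- libraries ranked it higher than all 3 Aged WT libraries, whereas the young groups overlapped. The difference at 18 months was 0.95 ± 0.40 (SE), the largest rise with genotype among the tested members at that age, and it did not pass (limma, unadjusted p = 0.029, adjusted p = 0.87). In Aged WT replicates 1 and 2 the region lay beyond the 28428 ranked ones and had the shared normal score of -0.52. The size of the difference therefore depends in part on that shared score. Values of the 3 and 3 libraries did not overlap at 18 months for 2 of the 19 tested members, the upstream Mlkl region and the Cflar start region, beside 8.49% of all regions.

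**Figure D3:**
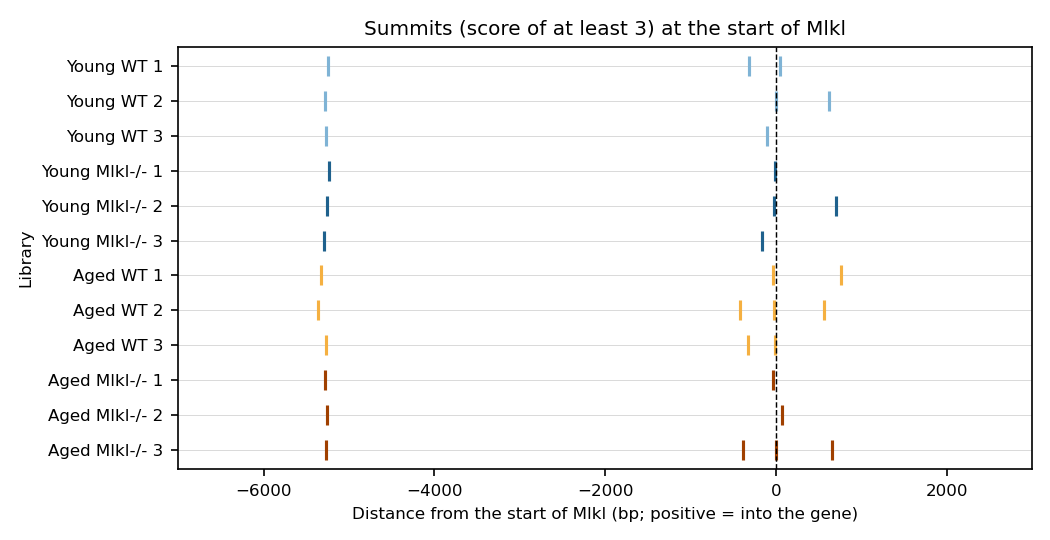
Summits with a score of at least 3 (ticks) around the start of Mlkl in each of the 12 libraries, by distance from the start in bp (positive into the gene, dashed line at the start), coloured by group. A summit near the start and 1 about 5.27 kb upstream are present in all 12 libraries, and Mlkl-/- and WT libraries show both.

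Likeness to the Mlkl start region was described by the Pearson correlation of normal scores over the 12 libraries. The most alike of 12596 other start regions were those of Spi1, the gene for a myeloid transcription factor (r = 0.98), Ptbp3 (r = 0.89) and Sema3f (r = 0.84). These are the extremes of many regions over few libraries that share a floor, and Mlkl itself was at the floor in 4 of the 12. Among the members the correlation with Mlkl ran from -0.45 for Zbp1 to 0.58 for Fadd.

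Ripk3, which encodes the kinase that phosphorylates MLKL, had the lowest-ranking start region (chr14:55788520-55789273). It was called in 10 of 12 lists, at 24424, 28160 and 24398 in Young WT, at 23251 in 1 Young Mlkl-/- list and not in the other two, at 23438, 37166 and 29688 in Aged WT and at 34976, 16180 and 36134 in Aged Mlkl-/-. One of the lists without it is the shortest of all and the other, Young Mlkl-/- replicate 2, was the longest young list. The change was -0.23 ± 0.29 both with age (adjusted p = 0.71) and with genotype (adjusted p = 0.92), in limma.

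The 2 further Ripk3 regions lay 7.42 kb past the start in an intron of the neighbour Adcy4 (chr14:55781080-55781846) and 7.14 kb upstream (chr14:55795657-55796279). The first was called in 11 lists between positions 14443 and 46110. The second was called in 3 of 3 Young WT lists (23710, 11348 and 26394), 2 Young Mlkl-/- lists (22566 and 37174), 2 Aged WT lists (31609 and 18398) and 1 Aged Mlkl-/- list (39475). Its changes of -0.53 ± 0.27 with age (adjusted p = 0.25) and -0.58 ± 0.27 with genotype (adjusted p = 0.75) did not pass in limma. This second region was among the ranked ones of 3 Young WT lists, 1 Young Mlkl-/- list, 1 Aged WT list and no Aged Mlkl-/- list. Without Young WT it would not have met the filter of at least 3 lists for testing, so its changes are given as descriptions.

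Ripk1, the kinase upstream of RIPK3, had the highest-ranking start region of the 8 genes (chr13:34001943-34003104). Positions were 5920, 5672 and 5764 in Young WT, 5085, 7872 and 6492 in Young Mlkl-/-, 4088, 7723 and 8716 in Aged WT and 11296, 11827 and 8300 in Aged Mlkl-/-. The 3 Young WT values lay close together. The aged mutant libraries lay lower than the young mutant ones, and in Mlkl-/- the ages did not overlap for 15.7% of all regions. In limma, the changes were -0.18 ± 0.11 with age (adjusted p = 0.37) and -0.16 ± 0.11 with genotype (adjusted p = 0.84).

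Other regions around Ripk1 were less regular. A region at the start of Bphl, just past the end of Ripk1 (chr13:34037213-34038012), was called in all 12 lists between 3966 and 16034. A region 6.96 kb upstream, in an intron of Serpinb6a (chr13:33995139-33995679), held a CTCF motif match, present in 9.13% of tested regions away from starts, and was called in 9 lists between 9443 and 37514. A region 44.2 kb past the start, in an intron of the neighbour Bphl (chr13:34046324-34046880), was the highest-ranking one away from any start, at 18330 and 25879 in 2 Young WT lists, 11494 and 7813 in 2 Young Mlkl-/- lists, 19096, 12550 and 6957 in Aged WT and 10059, 6452 and 15960 in Aged Mlkl-/-. It was missing in 2 young lists, Young WT replicate 3 and Young Mlkl-/- replicate 3, and in no aged one. Its change with age was the largest of the tested members, at 0.64 ± 0.28 (limma, adjusted p = 0.18), and did not pass. It depended on the fit, being 0.078 with list length as a covariate and 1.23 with Y summits as a covariate (adjusted p = 0.017), which did not pass either.

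Within the Ripk1 gene body, 29.9 kb past its start, an intronic region (chr13:34031951-34032496) had a call in 5 of the 6 aged lists but in 0 of the 6 young ones. The share of all regions with this pattern over both genotypes is not given here. In WT the region went from 0 of 3 young to 3 of 3 aged lists, as did 3.61% of all regions. The positions of the region were 38210, 31756 and 24008 in Aged WT and 39823 and 26942 in 2 Aged Mlkl-/- lists, and the 5 summits fell within 46 bp. These are low positions, and only 1 of the 6 young lists, Young Mlkl-/- replicate 2, was long enough to reach beyond the lowest of them, 39823. Every young list reached beyond the positions 24008 and 26942, since the shortest, Young Mlkl-/- replicate 3, called 28428 regions. The part of list length in these calls was not tested. Being among the ranked regions of only 2 lists, it was not tested.

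Zbp1, the sensor of Z-form nucleic acids and an interferon-induced gene, had a compact start region (chr2:173218689-173219230) with its 12 summits within 42 bp. Positions were 9358, 11927 and 15996 in Young WT, 11589, 11764 and 6194 in Young Mlkl-/-, 7746, 11661 and 5416 in Aged WT and 7126, 9144 and 10505 in Aged Mlkl-/-. All 12 values were in the upper part of the lists and all groups overlapped, with a change of 0.16 ± 0.13 with age (adjusted p = 0.52) and 0.05 ± 0.13 with genotype (adjusted p = 0.95). A region 5.31 kb upstream (chr2:173223936-173224580) was called in 4 lists, 1 young and 3 aged, at positions from 34838 to 38788.

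Casp8, the protease that restrains necroptosis, has more than 1 annotated start and had 3 regions. The first start region (chr1:58795119-58795801) was called at 9654, 12736 and 17974 in Young WT, 17834, 14047 and 11031 in Young Mlkl-/-, 11191, 19392 and 20241 in Aged WT and 21440, 15384 and 24428 in Aged Mlkl-/-. The groups overlapped, and the change with age was -0.22 ± 0.16 (adjusted p = 0.44). The second start region, 7.19 kb further in (chr1:58802260-58802998), was called in 11 lists between 15876 and 39172, with changes of -0.13 ± 0.27 with age (adjusted p = 0.81) and -0.47 ± 0.27 with genotype (adjusted p = 0.79).

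Between these starts, 2.2 kb past the first, lay the 1 member with calls in all 6 aged lists and in 0 young ones, a pattern shown by 0.841% of all regions (chr1:58797326-58797867, intron). Its positions were 26140, 28705 and 17610 in Aged WT and 34202, 32672 and 33646 in Aged Mlkl-/-, and its 6 summits fell within 42 bp. No young list held a summit there even at a score of at least 2. Of the 6 young lists, 4 were longer than the lowest of the aged positions, and Young Mlkl-/- replicate 2, with 46823 regions called, was longer than 3 of the aged lists. Longer aged lists move with this result, and their part in it was not tested beyond these values.

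Because the Casp8 intronic region was among the ranked regions of only 2 lists, both Aged WT, it was not among the tested ones. Some alternative fits held it, but only through the aged lists that call it, so they are no test of its change with age. With age over both genotypes it passed in the fit in which lists of unequal length were ranked whole. There 3.88% of 52332 regions passed, and the greater length of aged lists enters the ranks. It passed in none of the fits with lists kept equal, in which its adjusted p (limma) was between 0.12 and 0.40 with age over both genotypes. With age in WT the lowest adjusted p in those fits was 0.057. Counted by group, 2 members went from 0 of 3 Young WT to 3 of 3 Aged WT lists (this region and the Ripk1 intron), beside 3.61% of all regions, and 1 did so in Mlkl-/-, beside 2.66%. Between genotypes no member was called in all libraries of 1 group and none of the other, where 0.434% of regions were at 3 months and 0.687% at 18 months.

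**Figure D4:**
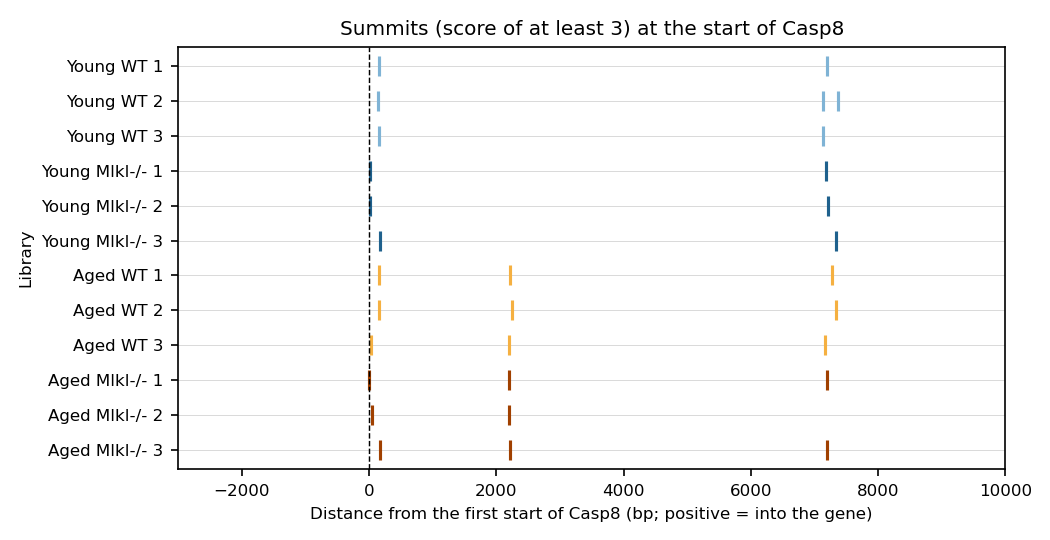
Summits with a score of at least 3 (ticks) around the first start of Casp8 in each of the 12 libraries, by distance from that start in bp (positive into the gene, dashed line at the start), coloured by group. Summits at the first start are present in all 12 libraries, those 2.2 kb into the gene in the 6 aged libraries only, and those at the second start, 7.19 kb in, in all but 1.

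Fadd, the adaptor of caspase-8, had a single region, at its start (chr7:144581423-144582756), with 38 summits over 834 bp. Positions were 16339, 15546 and 13248 in Young WT, 16795, 9100 and 12960 in Young Mlkl-/-, 16898, 17680 and 21880 in Aged WT and 18996, 21150 and 12342 in Aged Mlkl-/-. All 3 Aged WT libraries lay below all 3 Young WT ones, while in the mutants the ages overlapped. In WT the ages did not overlap for 17.4% of all regions. The change with age at Fadd was -0.17 ± 0.21 in WT (limma, adjusted p = 0.75) and -0.22 ± 0.21 in Mlkl-/- (adjusted p = 0.69). The change with age over both genotypes was -0.20 ± 0.15 (adjusted p = 0.48).

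Cflar, whose product cFLIP tunes caspase-8, had a start region (chr1:58711344-58711921) called at 19828, 17896 and 20776 in Young WT, 19266, 43262 and 14427 in Young Mlkl-/-, 19957, 20657 and 33666 in Aged WT and 17900, 13922 and 15414 in Aged Mlkl-/-. Young Mlkl-/- replicate 2 ranked it far below the other lists. The change was 0.03 ± 0.25 with age (adjusted p = 0.96) and 0.14 ± 0.25 with genotype (adjusted p = 0.93). With age it was -0.40 ± 0.36 in WT and 0.46 ± 0.36 in Mlkl-/-, and neither passed. At 18 months all 3 Mlkl-/- libraries ranked the region above all 3 WT ones, with a change of 0.57 ± 0.36 (limma, adjusted p = 0.89). Values did not overlap at that age for 8.49% of all regions.

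An intronic Cflar region 1.16 kb past the first start (chr1:58712387-58712969) had positions of 22539, 20053 and 21565 in Young WT, 27208 in 1 Young Mlkl-/- list, 35078 and 27916 in 2 Aged WT lists and 32644 in 1 Aged Mlkl-/- list. Young WT was thus the group that ranked it highest. The change was -0.78 ± 0.33 with age in WT (adjusted p = 0.27) and -0.77 ± 0.33 with genotype at 3 months (adjusted p = 0.87), which share the Young WT libraries. The region was among the ranked ones of 3 Young WT lists, 1 Young Mlkl-/- list, 1 Aged WT list and no Aged Mlkl-/- list. Without Young WT it would not have met the filter of at least 3 lists for testing, so these changes are given as descriptions. The third Cflar region, downstream of the gene and 50.03 kb from its start (chr1:58761218-58761887), stood at 8106, 18538 and 13764 in Young WT, 25139, 37174 and 23790 in Young Mlkl-/-, 12576, 11412 and 24145 in Aged WT and 25652, 7384 and 11585 in Aged Mlkl-/-. It was lower in all 3 mutant than in all 3 WT libraries at 3 months (-0.81 ± 0.31, adjusted p = 0.82), and the aged groups overlapped. Values of the 3 and 3 libraries did not overlap at 3 months for 2 of the 19 tested members, these 2 Cflar regions, beside 8.19% of all regions.

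Tradd, the adaptor between the TNF receptor and RIPK1, lies among closely spaced genes. The region over its own start (chr8:105264325-105264894) was called in 5 lists at positions from 24644 to 38124 and was not tested. The more often called region within 1 kb of the start lay 814 bp upstream, in an intron of Fbxl8 (chr8:105265120-105265731), so its signal cannot be assigned to Tradd alone. It stood at 31188, 19860 and 8816 in Young WT, 16268 and 21553 in 2 Young Mlkl-/- lists, 18404, 31806 and 22499 in Aged WT and 16246, 25494 and 27774 in Aged Mlkl-/-. Its changes were 0.05 ± 0.31 with genotype (adjusted p = 0.99) and 0.01 ± 0.31 with age (adjusted p = 0.99), and it was among the most variable within groups, since only 1.59% of tested start regions had a larger spread.

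A region in an intron of Tradd, 4.61 kb past its start (chr8:105259475-105260417), was called in all 12 lists. Positions were 31878, 23860 and 21883 in Young WT, 25656, 22190 and 21950 in Young Mlkl-/-, 19854, 6971 and 13267 in Aged WT and 16238, 24344 and 13932 in Aged Mlkl-/-. All 3 Aged WT libraries ranked it above all 3 Young WT libraries, and the aged and young mutants overlapped. In WT the ages did not overlap for 17.4% of all regions. The change was 0.79 ± 0.30 in WT (adjusted p = 0.21) and 0.50 ± 0.21 over both genotypes (adjusted p = 0.17), the lowest adjusted p of any member with age. A region at the start of the neighbour B3gnt9 (chr8:105253960-105255080) was called in all 12 lists between 11698 and 27014, with a change of 0.35 ± 0.16 with age (adjusted p = 0.22). Upstream of Tradd, regions at chr8:105268496-105268996 and chr8:105269495-105270003 were called in 1 and 2 Aged WT lists and in no other list. Their positions ran from 35081 to 44502, only 1 of the 6 young lists was longer than the lowest position of each, and they were not tested.

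Over all 8 genes, 19 of the 25 regions were tested, these being the ones among the 28428 highest regions in at least 3 lists. A region that passed this filter through 1 group alone would tend to differ between groups, so counts over the 19 are given as descriptions. With age over both genotypes 0 of 19 passed in limma at an adjusted p below 0.01, where 2.65% of the 36296 regions tested did. At an unadjusted p below 0.05 there were 4, where 22.1% of all regions were. Of the 19, 10 had a higher and 9 a lower mean rank in aged libraries, with a median change of 0.01 beside -0.01 over all regions.

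Within WT, 0 of 19 passed with age where 0.124% of all regions did, and within Mlkl-/- 0 of 19 where 0.157% did, with 2 and 1 members at an unadjusted p below 0.05, beside 14.6% and 14.3% of all regions. At backgrounds of this size a count of 0 among 19 says little about the members. The median change of the members was -0.17 in WT and 0.05 in Mlkl-/-, beside medians of 0.00 and -0.01 over all regions. Values of the aged and young libraries did not overlap for 3 of 19 members in WT, beside 17.4% of all regions, and for 2 of 19 in Mlkl-/-, beside 15.7%. The 2 age comparisons use different libraries. The change with age in Mlkl-/- minus that in WT passed for 0 of 19 members (0% of all regions), with 0 members at an unadjusted p below 0.05 and a lowest adjusted p of 0.96.

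Between genotypes, 0 of 19 members passed over both ages (0% of all regions), at 3 months (0%) or at 18 months (0%). At an unadjusted p below 0.05 there were 2, 2 and 1 members, beside 6.20%, 5.37% and 5.03% of all regions, with a lowest adjusted p of 0.75, 0.82 and 0.87. Over both ages, 12 of the 19 had a higher and 7 a lower mean rank in Mlkl-/-, with a median change of 0.05, and 49.5% of all regions were higher. The changes spanned -0.58 for the upstream Ripk3 region to 0.62 for the upstream Ripk1 region, and no member passed, so rank changes of this size could not be told from the spread between libraries. A p above the threshold does not show that the genotypes are alike.

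**Figure D5:**
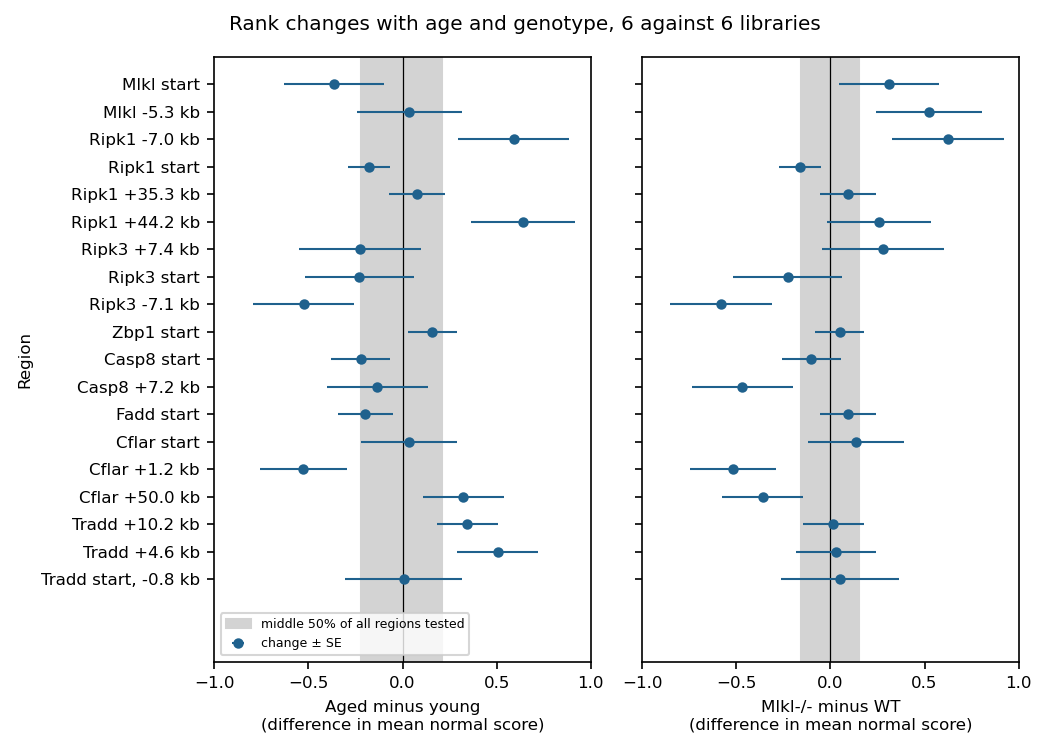
Change in mean normal score with age (left, aged minus young) and with genotype (right, Mlkl-/- minus WT) for the 19 tested regions (rows), 6 against 6 libraries; points are the limma estimates, bars are 1 SE, and the grey band holds the middle 50% of all tested regions. The changes with age run from -0.53 to 0.64 and those with genotype from -0.58 to 0.62, and none passed.

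The wider pathway was described by 50 further genes of TNF, interferon and death receptor signalling and of membrane rupture, with 190 regions, of which 125 were tested. With age over both genotypes 2 of the 125 passed, or 1.6%, both lower in aged libraries and none higher, beside 2.65% of all regions. They were an intronic region of Ikbkb, the gene for a kinase that activates NF-kB (chr8:22701307-22701913), with a change of -1.04 ± 0.20 (adjusted p = 0.0040) and calls in all 6 young but only 3 aged lists, and the start region of Ninj1, which encodes a protein of plasma membrane rupture (chr13:49187048-49188357) and fell by 0.56 ± 0.11 (adjusted p = 0.0049). The Ikbkb region was at the floor in every aged library, so it entered the fit through the young group alone and its change is given as a description. The change at Ninj1, which was called in all 12 lists, was -0.59 ± 0.16 in WT and -0.53 ± 0.16 in Mlkl-/-, and neither passed within a genotype. In the other 6 comparisons 0 of 125 passed in limma. At an unadjusted p below 0.05 there were 26 of 125 with age over both genotypes, beside 22.1% of all regions. With age in WT and in Mlkl-/- there were 21 and 16, beside 14.6% and 14.3%. For genotype over both ages, at 3 months and at 18 months there were 10, 4 and 9, beside 6.20%, 5.37% and 5.03%. The difference in age change had 9, beside 4.76%. The count that passed with age over both genotypes was 0 with list length as a covariate, and also without Young WT replicate 3, Aged WT replicate 1 or Aged Mlkl-/- replicate 1 or 2. The median change with age was -0.09 beside -0.01 over all regions.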

How the data were processed

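ATAC-seq libraries of HSCs (sorted, per the study's methods, after staining for lineage markers, c-Kit, Sca-1, Flk2, CD48 and CD150) had been prepared together, and both sexes were used in the study. Reads were aligned by the authors with Bowtie2 2.5.3 (mouse build mm10), and peaks were called per library with MACS2 2.2.7.1, per the submitters' processing notes and the study's methods. They deposited 1 list of summits per library, with the −log10 of the q-value as the score; replicates were not pooled. The methods state a cutoff of q = 0.001, whereas the lowest deposited scores were 2.00 to 2.01, so summits with a score of at least 3 were kept. The study tested read counts, which are not used here, and no interval for counting error was computed.

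Windows of 250 bp on each side of summits on chromosomes 1 to 19, X and Y were merged over the 12 lists into 71006 regions and annotated with GENCODE M21. Normal scores of within-list ranks were fitted over all 36296 tested regions with limma 3.58.1 (R 4.3.3, eBayes with trend, 4 group means sharing 1 spread), and p-values were adjusted by Benjamini-Hochberg over all regions of each of 7 contrasts, with a threshold of 0.01. Tested regions were among the 28428 highest in at least 3 lists; a reading of the filter as calls in 3 whole lists was added as an alternative after the data had been seen, since it let in regions at the floor in nearly every list. A score ranks summits within its own library and says nothing of read depth. Single values were compared by exact permutation tests over libraries. With 3 libraries against 3 no such test can give a p below 0.1. The fitting script was tested on simulated data.

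The 8 genes, the 50 further genes of the pathway, the marker genes and the motifs were chosen with earlier results of these data known. The start region of a gene was the one within 1 kb of an annotated start that most lists called, and then that of highest mean rank. Every gene was named with this region and with its highest-ranking region away from starts; other regions were named when called in all libraries of 1 group and none of another, or when the unadjusted p was below 0.05 and the values did not overlap; a few more were named after their values had been seen. The motif search covered both strands of the 150 bp on either side of the highest summit. The same replicate number did not mark paired samples: over 18 pairs of libraries that share a number, deviations from group means correlated between -0.31 and 0.13. Replicates are separate pools per the study's methods.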

Additional observations from a re-analysis of the deposited data

How the results depend on the processing

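Each result was recomputed with scores of at least 2 or 5, windows of 100 bp, other filters on calls, other rankings, covariates and with each library left out. The absence of members past the threshold held in all 7 comparisons under all of them, except that 1 member, the Casp8 intron, passed with age over both genotypes where lists of unequal length were ranked, a fit it entered through aged lists alone. With 2 kb in place of 10 kb around the genes, 15 regions were members. Of the other pathway genes, 2 regions passed with age; the count was 8 at an adjusted p below 0.05, 4 with lists of unequal length or with calls in at least 3 whole lists, 1 with a score of at least 5, with lists reduced to equal numbers of summits or with calls in at least 1 list, and 0 with list length or Y summits as a covariate or with only the 9 libraries whose names share a tag. It ran from 0 (without Young WT replicate 3, Aged WT replicate 1, Aged Mlkl-/- replicate 1 or 2) to 3 (without Aged WT replicate 2) when 1 library was left out. With age in WT it was 1 at an adjusted p below 0.05 and 2 with calls in 3 whole lists, which also gave 1 each for genotype over both ages, genotype at 3 months and the difference in age change; these were 0 otherwise. The cause of these shifts was not tested.

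The replicate block, added although numbers do not pair the samples, left 0 members past the threshold in all 7 comparisons and 0 pathway regions with age; 4 of the 12 libraries correlated best with their own number.

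The difference in summits with age was 11558.5 (exact p = 0.05) in the 9 libraries and 7896 to 13060 without 1 library, the exact p being 0.055 to 0.075 without Young Mlkl-/- replicate 1 or 3 or Aged Mlkl-/- replicate 1 or 3. That between genotypes was -310.0 in the 9 libraries and -615 to 4549 without 1 library, the sign turning without Young Mlkl-/- replicate 2.

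Changes that were small turned sign. With a score of at least 5, the change with age was -0.08 at the upstream Mlkl region, 0.19 at the Ripk3 start, 0.017 at the second Casp8 start and -0.26 upstream of Tradd, and the change with genotype was 0.19 at the Ripk3 start, -0.25 in the Tradd intron and -0.21 upstream of Tradd. With lists of unequal length, the change with age was -0.0055 at the upstream Mlkl region and 0.22 at the Ripk3 start, and that with genotype was -0.079 in the Tradd intron and -0.17 upstream of Tradd. With list length as a covariate, the change with age was -0.11 at the Bphl start by Ripk1, 0.026 at the Ripk3 start and -0.20 upstream of Tradd. With Y summits as a covariate it was -0.35 at the upstream Mlkl region, 0.28 at the Ripk3 region in Adcy4, -0.17 at the Cflar start and -0.055 upstream of Tradd. In the 9 libraries it was 0.049 at the second Casp8 start and -0.086 upstream of Tradd, and the change with genotype was -0.021 in the Tradd intron and -0.036 upstream of Tradd. With lists reduced to equal numbers of summits, the change with age upstream of Tradd was -0.034.

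Without 1 library, the change with age ran from -0.16 to 0.14 at the upstream Mlkl region, from -0.024 to 0.19 at the Bphl start, from -0.17 to 0.21 at the Cflar start and from -0.23 to 0.19 upstream of Tradd. The change with genotype ran from -0.016 to 0.19 at the Bphl start, from -0.015 to 0.10 at the Zbp1 start, from -0.042 to 0.34 at the Cflar start, from -0.034 to 0.081 at the B3gnt9 start by Tradd, from -0.14 to 0.12 in the Tradd intron and from -0.18 to 0.26 upstream of Tradd. None of these passed. Changes that kept their sign varied in size too; that with age at the Ripk1 region in a Bphl intron ran from 0.078 to 1.23, with a lowest adjusted p of 0.017. The lists hold no read depth, so that low-ranking regions and regions missing from a short list cannot be told apart from regions that were sequenced too thinly.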
